A study of Mus musculus with 4 samples.

Results

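The 40 genes described here encode proteins that fold, check and degrade secretory proteins in the endoplasmic reticulum (ER). They were chosen by name for their function, and all 40 had a row among the 17712 genes measured. Expression was measured by single-cell RNA sequencing of mouse stomach epithelium in 4 libraries. Libraries Epcam+ 1 and Epcam+ 2 held 1642 and 1896 cells sorted for the epithelial surface protein Epcam, and libraries GFP+ 1 and GFP+ 2 held 467 and 444 Epcam-positive cells that also carried green fluorescent protein. All 4 came from female Rosa26iH2b-GFP mice of 14 weeks, made in C57BL6/N eggs, in which an EF1a promoter drives the Tet-on 3G activator and a TRE3G promoter drives H2b-GFP, both at Rosa26. The mice received doxycycline feed for 4 weeks from 4 weeks of age and were then chased for 6 weeks without it, so that GFP marks cells that kept their labelled histone. Sorted cells of 2 mice were combined before loading, and cells with Cd45 or Cd31 on their surface had been removed. No source used here states that the libraries of a group came from separate animals, so the p-values below rest on a spread that may be technical. In comparisons of GFP+ with Epcam+ cells it is the spread between libraries. In comparisons between clusters, which have the library as a block, it is what remains after differences between whole libraries are taken out.

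Secretory and membrane proteins enter the ER unfolded. Hsp70 and Hsp90 type chaperones such as Hspa5 (BiP) and Hsp90b1 hold them, the lectin chaperones calnexin and calreticulin retain glycoproteins, disulfide and prolyl isomerases set their bonds, and proteins that do not fold are sent out through the Sel1l and Syvn1 complex to the proteasome. The sensors Ern1 (IRE1), Eif2ak3 (PERK) and Atf6 read the load of unfolded protein, and the transcription factors Xbp1 and Atf6 raise many genes of this set. In the stomach corpus, chief cells store digestive enzymes in large granules, neck and pit cells secrete mucins, endocrine cells release peptides and amines, and isthmus cells divide.

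Atf6 and Xbp1 are known to act through short elements in promoters, and these were searched in the RefSeq promoter windows of the mouse genome (GRCm38.p6), each from 250 bases before to 50 bases after a gene's start, for the 34 members with an entry. Hspa13, Hyou1, Atf6, Derl1, Sil1 and Manf were not searched. The ER stress element, CCAAT, then 9 bases of any kind, then CCACG, read on either strand, stood in 9 of the 34 members (26.5%) and in 37 of all 27025 genes searched (0.137%; 39 of 32851 windows, 0.119%). The nearly adjoining form, ATTGG, then 1 base, then CCACG, stood in Dnajb11 and Herpud1 (5.88%) and in 12 of all genes (0.0444%; 12 windows, 0.0365%). TGACG followed directly by TGG stood in Txndc5 and Txndc11 (5.88%) and in 193 of all genes (0.714%; 222 windows, 0.676%). The stretches below show the element in the 6 members holding either form that differed most between chief and neck cells apart from Dnajb11, and in Canx, which holds it and was not higher in chief cells. Each is given 5′ to 3′ on the gene's strand with the ends of the element in capitals; CGTGG and ATTGG are the same ends read from the opposite strand.
Derl3 (chr10:75893227-75893275, + strand, element at 156 to 138 bases before the start): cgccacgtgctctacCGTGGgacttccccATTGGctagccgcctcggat
Creld2 (chr15:88819505-88819553, + strand, 126 to 108 bases before): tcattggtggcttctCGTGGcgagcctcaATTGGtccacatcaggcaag
Syvn1 (chr19:6046517-6046565, + strand, 44 to 26 bases before): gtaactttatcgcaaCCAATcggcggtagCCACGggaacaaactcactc
Herpud1 (chr8:94386362-94386402, + strand, 52 to 42 bases before): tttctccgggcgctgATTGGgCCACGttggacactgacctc
Dnajc3 (chr14:118937812-118937860, + strand, 105 to 87 bases before): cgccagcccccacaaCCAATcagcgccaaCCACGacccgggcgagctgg
Hspa5 (chr2:34772010-34772058, + strand, 65 to 47 bases before): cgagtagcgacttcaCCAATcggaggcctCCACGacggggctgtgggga
Canx (chr11:50325785-50325833, - strand, 145 to 127 bases before): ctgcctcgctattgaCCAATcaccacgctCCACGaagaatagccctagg
A match is a run of letters in the window, and no binding was measured. The element also stood in Calr, Hsp90b1 and Pdia6.

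Total UMIs (molecules counted by their unique identifiers) ranged from 35571141 to 79455225 per library. The authors sorted the cells into 10 clusters and named them from marker genes, and the names are used here: cluster 0 neck, 1 and 5 chief, 2 pit, 3 and 4 isthmus, 6 and 7 endocrine, 8 parietal and 9 tuft. The markers of each named type had their highest summed level in a cluster of that name for chief, pit, isthmus, endocrine and parietal. The neck list was at 33370 CPM (counts per 1000000) of all UMIs in cluster 0 and 33148 in cluster 3. In library Epcam+ 1 it was at 48853 CPM in cluster 0 and at 25956, 36024 and 31410 in clusters 2, 3 and 4. In Epcam+ 2 cluster 0 was the lowest of these, at 22442 CPM against 24386, 30272 and 27341. The chief list summed to 173076 CPM in cluster 0 and 842693 in cluster 1. Clusters 3, 4 and 8 had at least 20 cells only in the Epcam+ libraries, cluster 7 in 3 libraries and cluster 9 in none. Plasma cell markers, which would bring many ER genes with them, were measured for 1 of 6 genes and summed to at most 0.0938 CPM in clusters 0, 1 and 5. Heat shock and dissociation genes, all 6 measured, summed to 11817 CPM of all UMIs in neck cells and 2013 in cluster 1, but to 17056 CPM (13323 to 22603 over libraries) and 15438 CPM (12511 to 21598) without the 20 most abundant genes, and to 321 ± 105 and 268 ± 122 UMIs per cell (SD, n = 4), so that the libraries of both clusters overlapped on those scales. Transcripts of the mitochondrial genome came to 1818 ± 204 UMIs per cell in neck cells and 1716 ± 360 in cluster 1. 4 barcodes occurred in more than 1 library. The clusters were formed on gene expression that could include these 40 genes, so a difference between clusters is a description of the cells as clustered, and the counts were repeated with cells clustered again without the 40 genes.

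Whether chief cells devote more of their RNA than neck cells to ER folding and degradation turned on what the total contained. As a share of all UMIs, the 40 genes together took 1.14% ± 0.0754 (SD, n = 4 libraries) in neck cells and 0.498% ± 0.00738 in the chief cells of cluster 1. The 20 most abundant genes of the series, among them Clps, Pla2g1b and Pgc, which encode digestive proteins of chief cells, made up 87.0% of the UMIs of cluster 1, 65.2% in cluster 5, 30.5% in neck and 25.9% in pit cells. None of the 40 members is among these 20 genes. With the 20 genes left out of the total, the 40 members took 3.82% ± 0.117 in cluster 1, 2.61% ± 0.265 in cluster 5 and 1.63% ± 0.0571 in neck cells, and the order of neck and chief cells was turned. Pit cells (1.20% ± 0.0836), endocrine cells of cluster 6 (1.12% ± 0.0716) and the remaining clusters lay lower on this scale. None of their libraries with at least 20 cells reached the lowest neck library at 1.58%. The 20 genes do not include the endocrine marker Chga. Without the 20 most abundant genes of each cluster, members aside, cluster 7 took 1.43% ± 0.0762, cluster 6 1.35% ± 0.0954 and pit cells 1.30% ± 0.0937. Both endocrine means, with cluster 7 at 1.06% before, were then above that of pit cells, but the libraries overlapped. The lowest neck library, at 1.76% in that total, was still not reached. In none of these totals did the libraries of cluster 1 and of neck cells overlap.

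**Figure D1:**
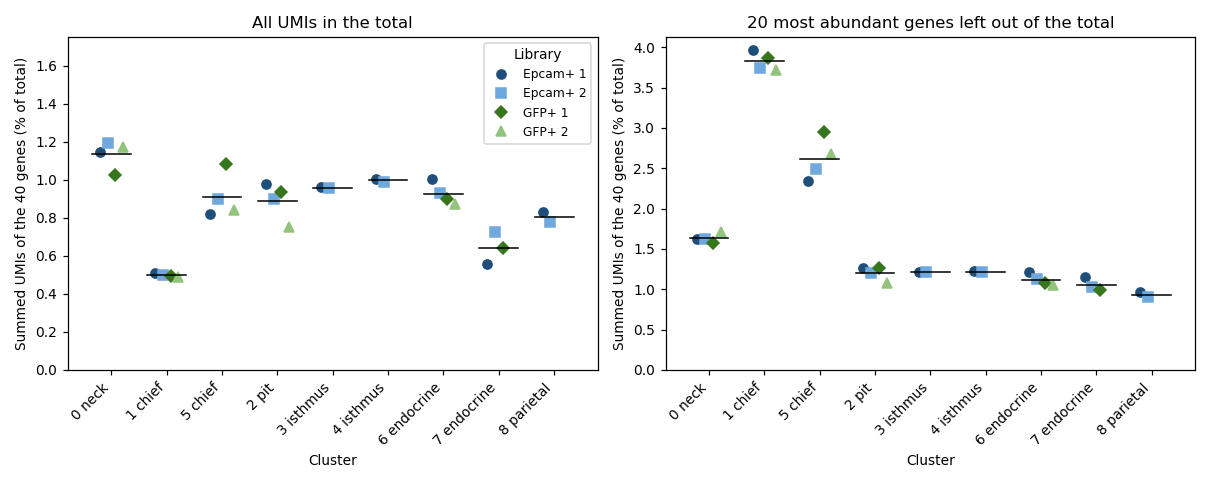
Summed UMIs of the 40 genes as a percentage of the total, for each cluster on the horizontal axis, with all UMIs in the total (left) and without the 20 most abundant genes (right). Points are libraries and lines are their means; cluster 1 lies at 0.498% on the left and at 3.82% on the right, against 1.14% and 1.63% in neck cells.

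Counted per cell, with no total, the answer went the way of the second scale. A chief cell of cluster 1 held 642 UMIs of the 40 genes on average over libraries and a neck cell 304, a ratio of 2.10 ± 0.134 (n = 4 libraries; lowest 1.92, highest 2.23). The cells differed in depth mainly through the 20 genes: a cluster 1 cell had 129122 UMIs and a neck cell 26971, but 16793 and 18601 without the 20 genes. Of the 40 members, 36 had more UMIs per cell in cluster 1 than in neck cells (90%), as did 30.8% of the 16657 genes with a UMI in either cluster. The 4 exceptions were Dnajc10, Pdia3, Canx and Txndc5. The difference was spread over cells: in each library the cell at the 10th percentile of cluster 1 had a larger member share without the 20 genes (2.53% to 2.93%) than the cell at the 90th percentile of neck cells (2.13% to 2.42%).

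The groups of members did not shift by equal amounts. On the scale without the 20 genes, the 10 degradation genes summed to 3.57 ± 0.297 times the neck level in cluster 1, the 12 chaperones and cofactors to 2.64 ± 0.350 times and the 3 prolyl isomerases to 2.02 ± 0.120 times. The 4 sensors and transcription factors stood at 1.94 ± 0.105 times, the 3 lectin and glycoprotein check genes at 1.72 ± 0.209 times and the 7 disulfide isomerases at 1.53 ± 0.0462 times. In the total of all UMIs the same ratios were 0.669 ± 0.0342 for degradation and 0.287 ± 0.0172 for the disulfide isomerases; a change of total multiplies all groups of a library alike, so their order is 1 result and not several. The degradation ratio was above the disulfide ratio in all 4 libraries.

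**Figure D2:**
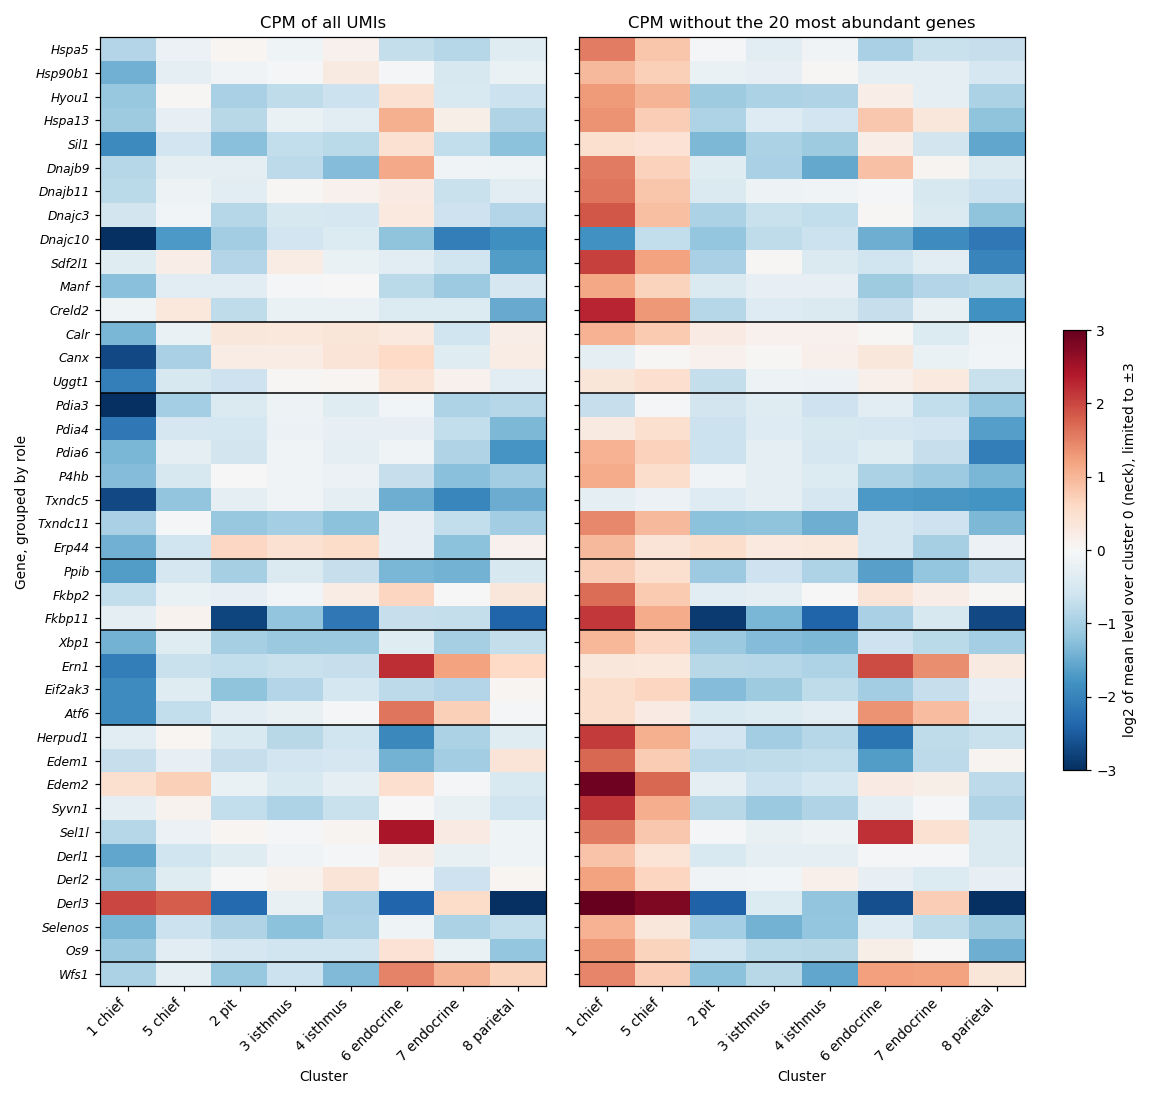
Each row is a member and each column a cluster; colour gives log2 of the mean level over libraries divided by that in neck cells, in CPM of all UMIs (left) and in CPM without the 20 most abundant genes (right), limited to ±3. On the right nearly all rows are red in the chief clusters 1 and 5, while on the left only Derl3 and Edem2 are red in cluster 1; Sel1l, Ern1, Atf6 and Wfs1 are red in endocrine cluster 6 in both panels.

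Tested gene by gene, 36 members were higher and 4 lower in cluster 1 than in neck cells with the 20 genes left out of the library size (edgeR's quasi-likelihood test with the library as a block, Benjamini-Hochberg adjusted p below 0.05 over 12094 genes). Over all genes tested 19.8% were called higher and 45.1% lower. The median log2 fold change was 1.18 over the members and -0.29 over all genes. With the total of all UMIs, 2 members were called higher and 36 lower, where 1.23% of the 13154 genes then tested were higher and 90.7% lower and the median of all genes was -2.68. The members moved together with the scaling, as the plot of the chief against neck differences under 3 scalings shows, and Derl3 and Edem2 were higher in cluster 1 under every scaling. With trimmed-mean (TMM) factors 36 members were higher and 2 lower, and the median of all genes was -0.05. With cells clustered again without the 40 genes 35 were higher and 4 lower, and the median of all genes was -0.28. That clustering compares mixed groups, as the neck cells took in 177 cells of cluster 5 and the cells of cluster 1 took in 98.

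**Figure D3:**
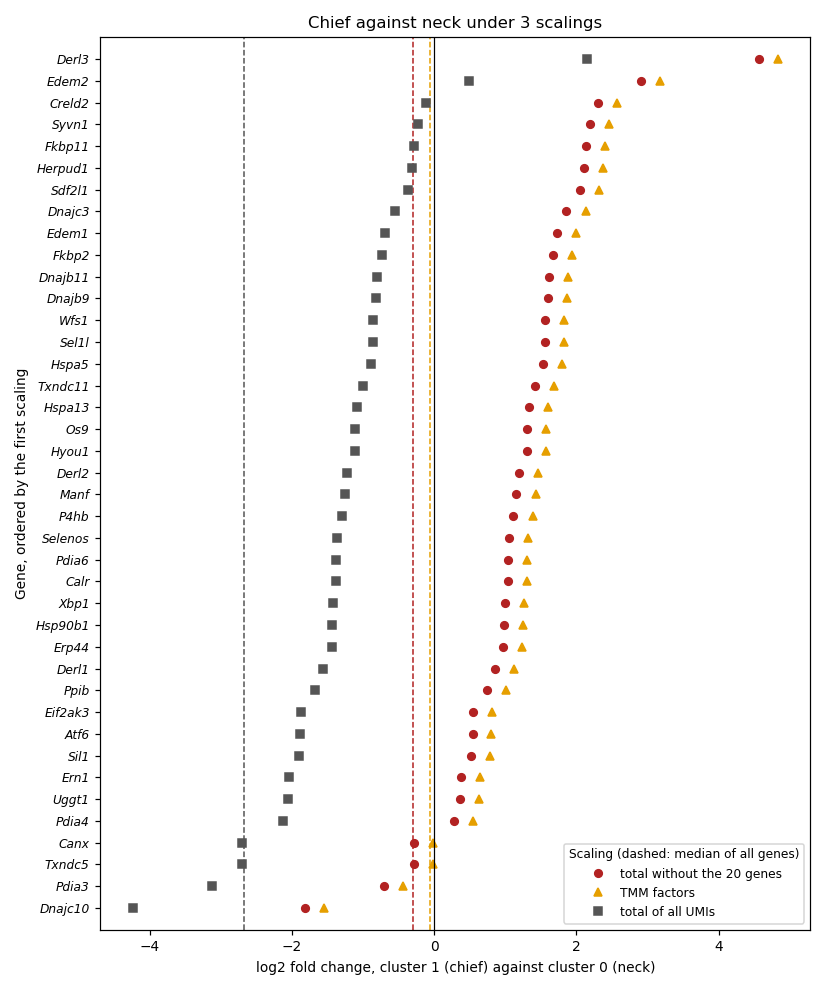
Log2 fold change of each member in cluster 1 (chief) against cluster 0 (neck), horizontal axis, under 3 scalings (symbols); dashed lines are the median of all genes tested under each. The symbols of a member move together with the median of all genes, and Derl3 and Edem2 lie right of 0 with all 3 symbols.

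Among the degradation genes, Derl3, a derlin of the channel through which misfolded proteins leave the ER, differed most. Its level without the 20 genes was 291, 339, 284 and 318 CPM in cluster 1 (libraries Epcam+ 1, Epcam+ 2, GFP+ 1 and GFP+ 2, the order kept below) and 7.13, 17.8, 12.3 and 20.3 CPM in neck cells. The groups were far apart, with a log2 difference of 4.57 ± 0.16 (SE; edgeR adjusted p = 3.02e-19), and of 2.14 in the total of all UMIs. A chief cell of cluster 1 held 5.15 ± 1.00 Derl3 UMIs and a neck cell 0.269 ± 0.119. Derl1 (log2 0.86) and Derl2 (log2 1.19), the other derlins, differed far less.

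Edem2, which trims mannose from glycoproteins bound for degradation, was at 648, 640, 561 and 540 CPM without the 20 genes in cluster 1 and at 83.9, 81.1, 76.5 and 76.8 CPM in neck cells. Its log2 difference was 2.91 ± 0.09 (edgeR adjusted p = 4.923e-20) and remained positive, at 0.49, in the total of all UMIs. Edem1, of the same family, differed by 1.73 ± 0.09. Herpud1, a membrane scaffold of the degradation complex, was at 3664, 3123, 3159 and 3741 CPM without the 20 genes in cluster 1 and at 697, 742, 803 and 952 CPM in neck cells, a log2 difference of 2.10 ± 0.14. In CPM of all UMIs its levels overlapped, with 469, 417, 403 and 494 in cluster 1 and 491, 547, 522 and 652 in neck cells. Syvn1 (HRD1), the ubiquitin ligase, differed by 2.19 ± 0.11 and its partner Sel1l by 1.55 ± 0.11, and the lectin Os9 (1.31) and the membrane adaptor Selenos (1.05) were also called higher.

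Of the chaperones, Hspa5 was the most abundant member in cluster 1. It stood at 8757, 6740, 8693 and 8037 CPM without the 20 genes there and at 2490, 2638, 2511 and 3513 CPM in neck cells, with no overlap and a log2 difference of 1.53 ± 0.12 (edgeR adjusted p = 1.834e-11). In CPM of all UMIs the order was opposite, with 1120, 899, 1108 and 1062 against 1756, 1947, 1632 and 2407. Leaving Hspa5 out, the other members still took 3.02% ± 0.079 in cluster 1 and 1.36% ± 0.0213 in neck cells without the 20 genes. Larger differences than that of Hspa5 were measured for Creld2, at 2.30 ± 0.12, and for cofactors that serve Hspa5. These were Sdf2l1 at 2.05 ± 0.14, Dnajc3 at 1.86 ± 0.09, Dnajb11 at 1.61 and Dnajb9 at 1.60 ± 0.13. Hspa13 (1.33), Hyou1 (1.30), the folding and survival factor Manf (1.16), Hsp90b1 (0.98) and the nucleotide exchange factor Sil1 (0.52) were called higher by smaller amounts.

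Dnajc10 (ERdj5), a J-protein that reduces disulfide bonds of proteins bound for degradation, was lower in cluster 1 than in neck cells on every scale, and without the 20 genes it was the only chaperone or cofactor of the 12 that was. It was at 92.6, 96.6, 94.6 and 79.3 CPM without the 20 genes in cluster 1 and at 340, 315, 295 and 334 CPM in neck cells. No libraries overlapped, and the log2 difference was -1.82 ± 0.08 (edgeR adjusted p = 9.485e-17). Counted per cell it stood at 1.51 ± 0.246 UMIs in cluster 1 and 5.96 ± 0.745 in neck cells.

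The disulfide isomerases were divided. Pdia3 (ERp57), the partner of calnexin and calreticulin, was at 477, 368, 530 and 366 CPM without the 20 genes in cluster 1 and at 765, 659, 747 and 638 CPM in neck cells, a log2 difference of -0.70 ± 0.09 (edgeR adjusted p = 7.488e-08). Txndc5 was also lower, by a log2 of -0.28 ± 0.09. The other members of the group were called higher: the Edem partner Txndc11 (1.42), P4hb (1.11), Pdia6 (1.04), Erp44 (0.97), which retrieves secretory proteins from the Golgi, and Pdia4 (0.29). Of the lectin group, Calr (calreticulin) differed by 1.04 ± 0.09 and the glycoprotein folding sensor Uggt1 by 0.36, while Canx (calnexin) differed by -0.28 ± 0.10. The differences of Canx and Txndc5 were each -0.01 with TMM factors and were not called there (edgeR adjusted p = 0.9415 and 0.9634), and without library Epcam+ 1 Canx differed by -0.21 (edgeR adjusted p = 0.1049). Of the prolyl isomerases, Fkbp11 differed by 2.13 ± 0.12, Fkbp2 by 1.68 and Ppib, cyclophilin B, by 0.74 ± 0.13.

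The sensors and Xbp1 were all called higher. Xbp1 was at 1806, 1675, 1780 and 1663 CPM without the 20 genes in cluster 1 and at 852, 812, 925 and 885 CPM in neck cells, a log2 difference of 1.00 ± 0.09. Eif2ak3 (0.54), Atf6 (0.54) and Ern1 (0.38) were called higher by less, and 3′ counting does not separate the spliced from the unspliced Xbp1 transcript. Wfs1, a membrane protein of the ER known from Wolfram syndrome, differed by 1.56. The 11 searched members with either form of the ER stress element had a median log2 difference of 1.61 (lowest -0.28, highest 4.57) and the 23 searched members without one 1.11 (lowest -1.82, highest 2.91), given as a description. Canx, printed above, holds the element and was at the low end, and Edem2 and Fkbp11 hold no match in their windows and were near the top.

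**Figure D4:**
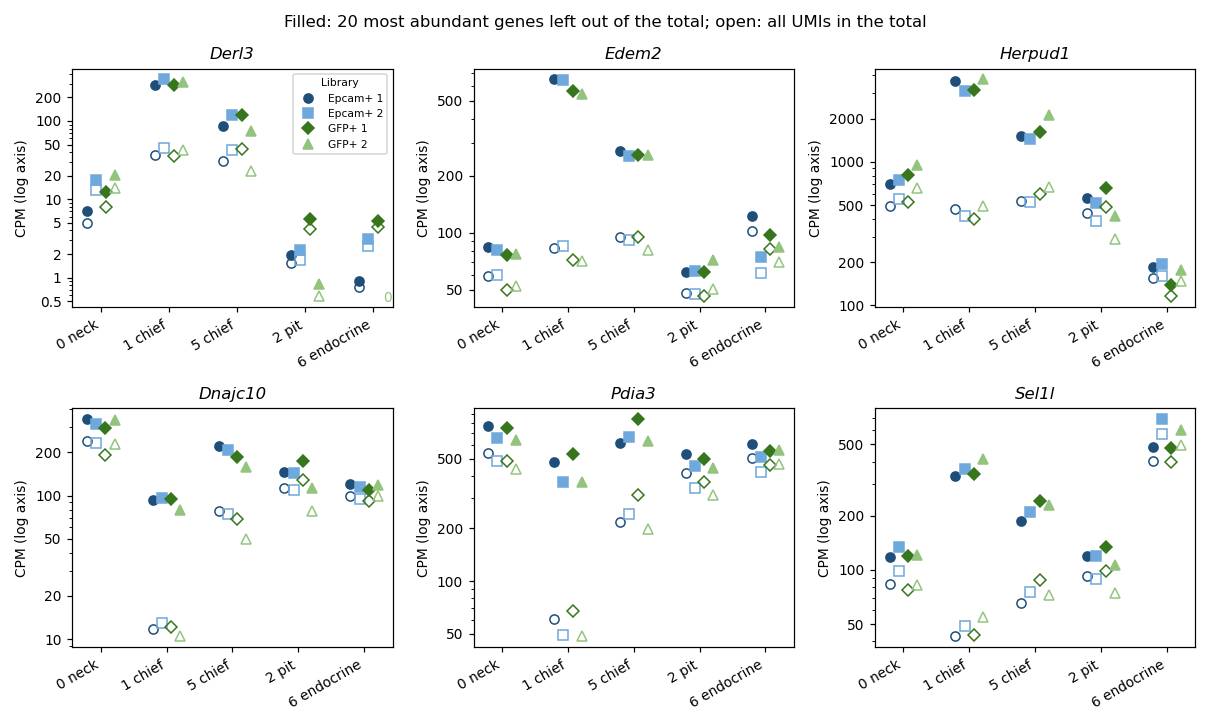
CPM on a log axis of 6 members in clusters 0, 1, 5, 2 and 6, for each library; filled symbols leave the 20 most abundant genes out of the total, open symbols include all UMIs, and a 0 marks a library without a UMI. Derl3 and Edem2 are higher in the chief clusters than in neck cells with both symbols, Dnajc10 is lower with both, and Sel1l is highest in endocrine cluster 6.

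Cluster 5, the second chief cluster, lay between neck cells and cluster 1. Clustered again without the 40 genes, 177 of its 278 cells fell with the neck cells and 98 with those of cluster 1, so its mean level is one over cells that this clustering splits. That level was between theirs for 36 of the 40 members without the 20 genes, for 33 in CPM of all UMIs and for 37 in UMIs per cell. Without the 20 genes, 34 members were called higher and 1 lower than in neck cells (11% of all genes higher and 8.33% lower), and the members' median log2 was 0.70 against 0.00384 for all genes. With the total of all UMIs 3 were higher (Derl3, Edem2 and Creld2) and 24 lower, where 2.68% of all genes were higher and 73.8% lower. Derl3 stood at 86.6, 118, 120 and 74.1 CPM without the 20 genes, above every neck library, and differed from neck cells by a log2 of 2.96 ± 0.20. Edem2 differed by 1.71 ± 0.10, Creld2 by 1.30 ± 0.12, Herpud1 by 1.07 ± 0.14 and Hspa5 by 0.82 ± 0.12. Dnajc10, the single member called lower, was at 222, 206, 187 and 158 CPM without the 20 genes, a log2 of -0.72 ± 0.09.

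Set against cluster 1, cluster 5 had 3 members higher and 28 lower without the 20 genes (35.7% of all genes higher and 11.1% lower), and the members' median log2 was -0.58 against 0.30 for all genes. In the total of all UMIs 39 were higher and 0 lower (87.2% and 0.258% of all genes). The members higher in cluster 5 were those lower in cluster 1 than in neck cells, apart from Txndc5: Dnajc10 by 1.10 ± 0.09, Pdia3 by 0.67 ± 0.09 and Canx by 0.31 ± 0.10. Without library GFP+ 1 Canx differed by 0.25 (edgeR adjusted p = 0.09088), and with TMM factors by 0.04. Derl3 was lower by -1.61 ± 0.14, Edem2 by -1.19 ± 0.09 and Herpud1 by -1.03 ± 0.14. Of the 278 cells of cluster 5, 37 (13.3%) were called doublets, against 4 of 896 in cluster 1 and 2 of 1121 in neck cells, and its summed pit markers stood at 5894 CPM of all UMIs against 84.0 in cluster 1. Without the cells called doublets the counts were 34 higher and 2 lower than in neck cells, and 4 higher and 28 lower than in cluster 1.

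Pit cells, which secrete mucus at the surface, gave a smaller share of their RNA to the members than neck cells, but held more member UMIs per cell. The members summed to 389, 321, 641 and 483 UMIs per pit cell and to 280, 257, 333 and 348 per neck cell, and a pit cell held 38300 UMIs without the 20 genes against 18601. As shares, without the 20 genes 2 members were higher and 32 lower (17.7% of all genes higher and 42.8% lower). The median log2 was -0.62 over members and -0.24 over all genes. The total of all UMIs gave 2 higher and 30 lower, with medians of -0.52 over members and -0.16 over all genes. Fkbp11, a prolyl isomerase of secretory cells, was at 35.2, 33.2, 30.0 and 17.4 CPM without the 20 genes in pit cells and at 241, 184, 252 and 170 CPM in neck cells. Pit and neck libraries were far apart, by a log2 of -2.78 ± 0.13 (edgeR adjusted p = 1.134e-15). Derl3 differed by -2.47 ± 0.29, Txndc11 by -1.26 ± 0.10, Xbp1 by -1.10 ± 0.09 and Ppib by -1.10 ± 0.13. Erp44 (0.52 ± 0.09) and Calr (0.24 ± 0.09) were the 2 members called higher; without library Epcam+ 1 Calr differed by 0.24 (edgeR adjusted p = 0.09827) and without GFP+ 1 by 0.15 (edgeR adjusted p = 0.1783). Hspa5 was at 2798, 2468, 3158 and 2438 CPM, overlapping the neck libraries.

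Isthmus cells of cluster 3, compared in the 2 Epcam+ libraries that held enough of them, had 0 members higher and 28 lower than neck cells (21.5% of all genes higher and 32.8% lower). Per cell the order was opposite, with 389.5 and 372.5 member UMIs against 280 and 257 in neck cells of the same libraries. At an unadjusted p below 0.05 edgeR also had 0 higher, and DESeq2 called 0 higher and 28 lower. The largest differences were those of Fkbp11 at -1.43 ± 0.15, Selenos at -1.40 ± 0.11 and Xbp1 at -1.29 ± 0.12. Leaving out library Epcam+ 2 left 16 members called lower.

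In endocrine cells of cluster 6 Sel1l, Ern1 and Atf6 were higher than in neck cells, and of the 12 chaperones and cofactors 6 were lower and 2 higher. Without the 20 genes 9 members were higher and 21 lower than in neck cells (40.5% of all genes higher and 26.6% lower), with medians of -0.31 over members and 0.17 over all genes. The total of all UMIs gave 16 higher and 15 lower, and the median of all genes was then 0.45. Sel1l, the partner of the Syvn1 ligase, was at 483, 688, 476 and 596 CPM without the 20 genes and at 119, 134, 119 and 121 CPM in neck cells, a log2 difference of 2.17 ± 0.11 (edgeR adjusted p = 4.021e-16). Its level in cluster 6 was also above that of every cluster 1 library, where it stood at 334, 366, 342 and 415 CPM. Syvn1 itself was at 36.1, 55.5, 54.8 and 31.6 CPM in cluster 6, overlapping neck cells at 50.6, 46.8, 54.4 and 65.2 CPM.

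The sensors Ern1 and Atf6 were higher in cluster 6 too. Ern1 was at 46.1, 59.4, 56.3 and 71.9 CPM without the 20 genes and at 13.5, 14.7, 13.5 and 18.1 CPM in neck cells (log2 1.97 ± 0.15), and Atf6 at 74.1, 80.2, 76.6 and 78.9 CPM against 29.6, 31.5, 34.8 and 26.8 CPM (log2 1.32 ± 0.14). Eif2ak3, the third sensor, was called lower by a log2 of -0.97, and Xbp1 by -0.61. Wfs1 (1.33 ± 0.22), Dnajb9 (0.94 ± 0.14) and Hspa13 (0.81 ± 0.12) were also called higher, and Fkbp2 (0.39), Canx (0.34) and Edem2 (0.26) by less. Herpud1 differed by -2.19 ± 0.15, Txndc5 by -1.71 ± 0.11, Ppib by -1.65 ± 0.13, Edem1 by -1.59 ± 0.16, Dnajc10 by -1.48 ± 0.09 and Hspa5 by -0.97 ± 0.12. Derl3 was at 0.903, 3.08 and 5.26 CPM in 3 libraries and without a UMI in GFP+ 2. The pancreatic acinar list, 7 of 8 genes measured, summed to 448 CPM of all UMIs in cluster 6 (424 to 467 over libraries) against 127 in neck cells, and its part in these differences was not tested. In the second endocrine cluster, 7, Sel1l stood at 194, 166 and 149 CPM without the 20 genes (Epcam+ 1, Epcam+ 2 and GFP+ 1), well under cluster 6, and Ern1 at 34.5, 31.9 and 51.2 CPM. The summed chief markers there reached 308204 CPM of all UMIs and 9 of its 88 cells were called doublets.

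Which cluster held a member's highest mean level depended on the scale in the same way. Without the 20 genes it was cluster 1 for 30 members, cluster 6 for 4, and clusters 0 and 5 for 3 each. In CPM of all UMIs it was cluster 6 for 15, cluster 0 for 11, cluster 5 for 5 and cluster 4 for 4. Counted per cell it was cluster 1 for 23 members, the isthmus cluster 4 for 7, cluster 6 for 5 and pit cells for 4. This last order mixes libraries: cluster 4 was measured only in the Epcam+ libraries, at 474 and 443 member UMIs per cell against 389 and 321 for pit cells there, while the pit mean also takes in 641 and 483 from the GFP+ libraries.

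Other genes of ER folding and degradation, from a list of which 51 were tested, gave a more even split than the 40 members. In cluster 1 against neck cells 21 were higher (41.2%) and 19 lower (37.3%) without the 20 genes. Of all genes 19.8% were higher and 45.1% lower. The median log2 was 0.15 over these other ER genes and -0.29 over all genes. Ero1lb, an oxidase that recharges disulfide isomerases, differed by 4.56 ± 0.11, the isomerase Pdia2 by 4.23 ± 0.34, and Erlin1, of a membrane complex that binds degradation substrates, by -4.19 ± 0.13. In cluster 5 against cluster 1 16 were higher (31.4%) and 15 lower (29.4%), where 35.7% of all genes were higher and 11.1% lower. Erlin1 differed by 2.92 and Tmx3 by 1.26 upwards, and Pdia2 by -1.81 and Nucb2 by -1.52. In cluster 5 against neck cells 15 were higher (29.4%) and 6 lower (11.8%), where 11% of all genes were higher and 8.33% lower. Ero1lb (3.08) and Nucb2 (2.52) led those higher, with Erlin1 at -1.27 and Fkbp9 at -0.84.

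The mucous and endocrine clusters differed in the same list. In pit cells 7 were higher (13.7%) and 31 lower (60.8%) than in neck cells, where 17.7% of all genes were higher and 42.8% lower. Ero1l, the other oxidase, was at 1.65 ± 0.12, Pdia2 at -3.54 ± 0.34 and Nucb2 at -1.99. In endocrine cluster 6 27 were higher and 13 lower (40.5% of all genes higher and 26.6% lower). Ero1lb was at 2.94 ± 0.13, Tmx4 at 2.56 ± 0.09, Pdia2 at -3.97 ± 0.38 and Erlin1 at -3.64 ± 0.16. In isthmus cluster 3 4 were higher and 28 lower (21.5% of all genes higher and 32.8% lower). Ero1l was at 0.92, Erp29 at 0.52, Pdia2 at -2.10 and Creb3l2 at -1.68. Stc2 was called in each of these 6 comparisons except that of cluster 6, and its fold changes are not given because it had almost no UMIs in some groups.

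The study's sort asks whether cells that kept GFP differ from Epcam+ cells of the same cluster. In none of the 5 clusters with enough cells in all 4 libraries was a member called between GFP+ and Epcam+ cells (edgeR with TMM factors, 2 libraries against 2); a fit with the replicate number as a block gave calls, which stand with the other settings. Over all genes 0.0887% were called in cluster 1, 0.159% in neck cells, 0.309% in cluster 5, 0.364% in pit cells and 0.221% in endocrine cluster 6. At an unadjusted p below 0.05 there were 5 members in cluster 1, 6 in neck cells, 8 in cluster 5, 5 in pit cells and 5 of the 39 tested in cluster 6; DESeq2 called 0 in each and had 1, 0, 4, 4 and 1 at an unadjusted p below 0.05. Derl3 had too few UMIs to be tested in cluster 6.

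In cluster 1, where the GFP+ libraries held 145 and 257 cells, the members' median log2 difference was -0.00559 and that of all genes 0.00825. The 40 differences lay between -0.22 and 0.48, and the 95% interval of each lay within 1 log2 unit of 0. The median distance from an estimate to the end of its interval was 0.22. Hyou1, an Hsp70 type chaperone that exchanges nucleotide on Hspa5, came closest to a call, with TMM-scaled CPM of 28.1 and 20.5 among Epcam+ cells and of 32.0 and 35.5 among GFP+ cells. Its libraries did not overlap, and its log2 difference was 0.48 ± 0.14 (edgeR adjusted p = 0.4351; 95% interval 0.16 to 0.80). Calr stood at 237 and 209 against 267 and 270 CPM, a difference of 0.27 ± 0.09 (edgeR adjusted p = 0.5056). With the replicate number as a block both genes were called, Hyou1 at 0.50 and Calr at 0.27 (edgeR adjusted p = 7.594e-06 and 0.01479). The heat shock and dissociation genes of cluster 1 summed to 1688 and 1669 CPM of all UMIs in the Epcam+ and 1841 and 2853 in the GFP+ libraries. Their part in the differences of Hyou1 and Calr was not tested. Derl3, so much higher in chief cells, differed by -0.01 with an interval from -0.26 to 0.24. Without library Epcam+ 1, which leaves 1 Epcam+ library, Hyou1 differed by 0.72. A p that misses the threshold does not show that the sorts are alike, and the intervals give the range of differences that these 4 libraries allow.

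**Figure D5:**
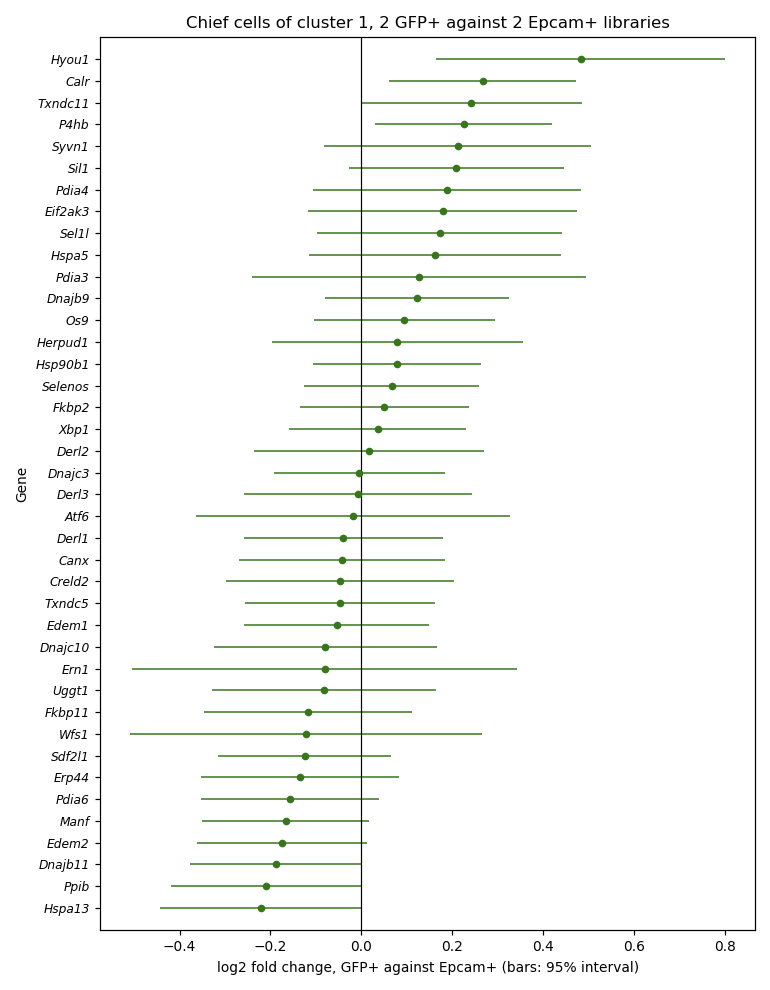
Log2 fold change of each member between GFP+ and Epcam+ libraries within the chief cells of cluster 1, with 95% intervals from edgeR. All 40 intervals lie within 1 log2 unit of 0; Hyou1 lies farthest from 0, at 0.48.

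In cluster 5, 32 of the 40 members had a positive difference, with a median of 0.23 against 0.000724 for all genes. The summed pit markers of these cells were at 8781 and 8679 CPM of all UMIs in the Epcam+ and 4032 and 2084 in the GFP+ libraries, and the heat shock and dissociation genes at 4929 and 5050 against 6917 and 7223; their part in the members' differences was not tested. Txndc11 differed by 0.65 ± 0.17 (edgeR adjusted p = 0.2014) and Hyou1, at 44.9 and 54.4 CPM in Epcam+ and 98.1 and 61.3 CPM in GFP+ libraries, by 0.70 ± 0.22 (edgeR adjusted p = 0.3344). Without library GFP+ 2, which leaves 1 GFP+ library, Hyou1 differed by 1.01. The library left, GFP+ 1, held the higher GFP+ level of Hyou1 and also of Pdia4. Pdia4 was at 63.7 and 61.0 CPM in Epcam+ and 110 and 67.3 CPM in GFP+ libraries. Members share libraries, so their common sign is no count of independent results; the summed member share without the 20 genes was 2.34% and 2.49% in the Epcam+ libraries and 2.95% and 2.68% in the GFP+ libraries. In neck cells Herpud1 differed by 0.30 ± 0.11 and Hyou1 by 0.40 ± 0.16 (edgeR adjusted p = 0.3849 and 0.414). Without library GFP+ 1, which leaves 1 GFP+ library, they differed by 0.43 and 0.68. In that remaining library, GFP+ 2, the heat shock and dissociation genes of neck cells summed to 15487 CPM of all UMIs. They summed to 9396, 11678 and 10708 CPM in Epcam+ 1, Epcam+ 2 and GFP+ 1, and their part in these differences was not tested. Ppib was at 867 and 897 CPM in Epcam+ and at 679 and 697 CPM in GFP+ libraries of pit cells (log2 -0.36 ± 0.09, edgeR adjusted p = 0.1225), and differed by -0.51 ± 0.11 in endocrine cells (edgeR adjusted p = 0.1106). Without library Epcam+ 2, which leaves 1 Epcam+ library, Ppib differed by -0.55 in endocrine cells. Sdf2l1 was called in pit cells without library GFP+ 1. Pdia6 differed by -0.37 ± 0.09 in pit cells (edgeR adjusted p = 0.1305). Of the other ER genes 1 was called in any of the 5 clusters, Erlin1 in pit cells at -0.97.

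In a direct test of the GFP+ effect in the other clusters against that in cluster 1, no member was called, with a lowest edgeR adjusted p of 0.5895 (Syvn1 in pit cells, -0.58). The lowest unadjusted p was that of Eif2ak3 in endocrine cells, where the effects differed by -1.13 (edgeR adjusted p = 0.6193; unadjusted 95% interval -1.84 to -0.42). The unadjusted interval of Txndc11 in cluster 5 ran from 0.09 to 0.73, and a missed threshold does not show that the effects are alike. Of all genes 0% were called for neck cells, 0.182% for pit cells, 0% for cluster 5 and 0.0317% for endocrine cells.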

How the data were processed

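The values are UMI counts per gene and cell, deposited by the authors as 1 table with a cluster for every cell. Per the labels and the study's methods, libraries were made with a 10x Genomics 3′ kit and counted with Cell Ranger 3.0.2 on mm10, and cells with over 15% mitochondrial counts, under 1500 or over 8000 genes, or any Ptprc or Pecam1 count were removed. 3′ UMI counts need no length scaling. Here counts were summed per library and cluster with at least 20 cells and tested with edgeR 4.0.16 in R 4.3.3 (filterByExpr, quasi-likelihood, two-sided). Comparisons between clusters used 1 fit with the library as a block and, as library size, the total without the 20 most abundant genes (56.1% of all UMIs); comparisons of sorts used TMM factors and no block. DESeq2 1.42.0 was an alternative. Doublets were called with Scrublet in scanpy 1.11.5 (74 of 4449 cells) and kept. The fits were tested on simulated counts. Intervals come from edgeR's standard errors. The rule for names was all 40 members, by role, and of the other ER genes the called ones with the largest rise and fall in each comparison; Stc2, with almost no UMIs in some groups, is named without a fold change. The members, the lists and their tests were chosen with earlier results of these data known. Levels are given as CPM of all UMIs, CPM without the 20 genes and UMIs per cell. Promoter windows and their sequences are from RefSeq (GRCm38.p6, the assembly behind mm10); for 27 of 34 members the bases after the start were found in a GENCODE transcript. No sample was left out and 0 columns of samples were unused.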

Additional observations from a re-analysis of the deposited data

How the results depend on the processing

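Between clusters, the total of all UMIs without a scaling factor changed most. It gave 2 members higher and 36 lower in cluster 1 than in neck cells, 39 and 0 in cluster 5 against cluster 1, 3 and 24 in cluster 5 against neck cells, 16 higher in endocrine cells and 1 higher (Erp44) in isthmus cells. Only a part of the named differences was followed through the settings, and it turned 15 of these: in cluster 1 against neck cells Creld2 to -0.11, Syvn1 to -0.23, Fkbp11 to -0.28, Herpud1 to -0.31, Sdf2l1 to -0.37, Dnajc3 to -0.55, Edem1 to -0.69, Dnajb9 to -0.82, Hspa5 to -0.89, Calr to -1.37, Xbp1 to -1.42 and Ppib to -1.67, in cluster 5 against cluster 1 Edem2 to 0.23 and Herpud1 to 0.38, and in cluster 5 against neck cells Hspa5 to -0.18. Over all 40 members many more turned by sign. In cluster 1 against neck cells 36 were positive in the main fit and 2 in the total of all UMIs. In cluster 5 against cluster 1, 33 were negative and then 1. In cluster 5 against neck cells, 37 were positive in the main fit and 8 in the total of all UMIs. That total counts the 20 most abundant genes, which is how it differs from the main library size. TMM factors gave 2 lower in cluster 1 and 1 higher in isthmus cells. DESeq2, and leaving out cells called doublets, gave 2 lower in cluster 5 than in neck cells (Dnajc10 and Txndc5). In pit cells 1 was higher (Erp44) with the Epcam+ libraries alone and with cells clustered again without the members, which also left 18 lower in isthmus cells. The new clustering compares other sets of cells here. Its pit group held 571 cells of cluster 2, 169 of cluster 3 and 132 of cluster 4, and its isthmus group held 176 cells (35.9%) of cluster 3. That setting gave no value for cluster 5, of whose 278 cells 177 joined neck cells and 98 cluster 1. Over the differences that were followed, in all settings, 734 values kept their direction and their side of the threshold. Another 12 lost the call and 15 gained one. The 15 that turned all did so with the total of all UMIs. Leaving out 1 library at a time gave 1 to 2 higher in pit cells and 16 to 28 lower in isthmus cells.

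Between sorts, leaving out 1 library gave 0 to 1 calls in cluster 1 (Hyou1 without Epcam+ 1), 0 to 4 in neck cells (Hspa5, Herpud1, Hyou1 and Dnajb9 without GFP+ 1), 0 to 2 in cluster 5 (Hyou1 and Pdia4 without GFP+ 2), 0 to 1 in pit cells (Sdf2l1 without GFP+ 1) and 0 to 1 in endocrine cells (Ppib without Epcam+ 2). Each of those fits leaves 1 library in 1 of the sorts, so its calls have no replicate on that side. Without a filter on low counts there were 1 call in cluster 1 and 1 in cluster 5 (Hyou1), 2 in pit cells (Ppib and Pdia6) and 1 in endocrine cells (Ppib). The cause was not tested. No source says what a replicate number marks. Deviations of same-numbered libraries from the group means correlated at 0.178, 0.235, -0.0424, 0.181 and 0.146 in clusters 1, 0, 5, 2 and 6, and the summed neck markers of neck cells were at 48853 and 44126 CPM in the libraries numbered 1 and at 22442 and 18058 in those numbered 2. With the replicate number as a block, 2 members were called in cluster 1 (Hyou1 and Calr), 3 in neck cells (Hspa5, Herpud1 and Hyou1), 0 in cluster 5, 0 in pit cells and 1 in endocrine cells (Ppib). In that fit Herpud1 and Hyou1 stood at 0.30 and 0.40 in neck cells (edgeR adjusted p = 0.005709 and 0.02061). Ppib stood at -0.51 in endocrine cells (edgeR adjusted p = 0.02164). With 2 libraries in each sort, the intervals given are unadjusted and do not mark the smallest difference that could be called. That of Hyou1 in cluster 1 lay above 0, and Hyou1 was not called in the main fit.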

Other observations

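Clusters with too few cells in a library were not compared, and their values are given here. The tuft cells of cluster 9 numbered 18 and 13 in the Epcam+ libraries, and the 40 members took 0.763% and 0.695% of their UMIs without the 20 most abundant genes, under the 0.966% and 0.902% of parietal cells in the same libraries. The GFP+ libraries held 17 and 10 isthmus cells of cluster 3, with member shares of 1.26% and 1.64% on the same scale, and 11 and 8 of cluster 4, with 1.22% and 1.26%.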
